A study of Mus musculus with 12 samples.

Results

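Whole-liver transcriptomes of mice given curcumin at 100 mg/kg (the high dose) were compared with those of mice given 25 mg/kg (the low dose), all with carbon tetrachloride (CCl4) injury. The members were the 3 high-dose and 3 low-dose libraries named by dose in the labels, 6 of the 12 libraries of the series. The other 6 libraries, 3 from injured mice without curcumin and 3 from mice given 50 mg/kg, did not enter the comparison. Mice of both doses were wild type on the C57BL/6J strain and 6 weeks old at the start. Both doses shared the injury, 200 µL of 7.5% CCl4 in olive oil injected into the peritoneum 2 times a week for 6 weeks. Both also received curcumin by daily gavage, for 2 weeks, and differed in its dose alone as far as the labels say. Neither group held uninjured liver, so every difference below is one between doses within injured liver. Mice were kept 3 to a cage and each group had 3 mice, so cage and dose may coincide and then cannot be told apart. The labels call the 3 libraries of a dose biological replicates.

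CCl4 is converted by hepatocyte cytochrome P450 to a radical that kills cells around the central vein, and repeated dosing activates stellate cells, which then deposit collagen. Curcumin, a polyphenol of turmeric, is widely studied for effects on NRF2 antioxidant genes and on NF-κB, the transcription factor family downstream of TNF. The title of the series places Slamf8, a SLAM family receptor of macrophages, upstream of TNF and NF-κB.

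The main differences among the libraries did not follow dose. The 6 libraries held 36015134 to 67695784 counts, and all 6 hepatocyte markers were present in each. Transcripts encoded by mitochondrial DNA took 63.7%, 64.1% and 43.0% of counts in low-dose replicates 1, 2 and 3, and 30.3%, 64.7% and 42.1% in high-dose replicates 1, 2 and 3. With the 11 near-identical nuclear copies of these genes included, low-dose shares were 87.0%, 86.7% and 57.9%. High-dose shares were then 41.2%, 87.0% and 56.3%. Counts outside both were 5180318, 8067295 and 25425772 at the low dose and 36377767, 8801280 and 15722673 at the high dose. Mitochondrial share below means the share without copies. It averaged 45.7% ± 17.5 (SD, n = 3) at the high dose and 56.9% ± 12.1 (SD, n = 3) at the low dose, for which an exact two-sided permutation test gave p = 0.5, where 0.1 is the smallest this design allows. The first principal component carried 65.7% of the variance and set the 3 libraries with shares of 63.7% or more apart from the other 3, so that both doses stood on both sides. The closest pair of all was low-dose replicate 3 and high-dose replicate 3, with a Spearman correlation across genes of 0.957, and the farthest pair was high-dose replicates 1 and 2. Results are therefore also given within libraries of like mitochondrial share, as high-dose replicate 3 minus low-dose replicate 3, and as high-dose replicate 2 minus the mean of low-dose replicates 1 and 2. These are differences of log2 CPM (counts scaled to a common library total) with a prior count of 2, and they carry no test.

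RNA of other tissues was uneven as well. High-dose replicate 1 held 5447 counts of Acta1 and 2763 of Ckm, the actin and creatine kinase of skeletal muscle, against 0 to 7 and 0 to 9 counts in the other 5 libraries. The summed level of 6 mesothelial markers, from the cell layer that covers the liver, was 14.5, 10.0 and 13.0 CPM at the low dose and 46.8, 11.2 and 59.4 CPM at the high dose. High-dose replicates 1 and 3 were thus above all low-dose libraries, and high-dose replicate 2 was within their range. The summed level of 6 hepatocyte markers was 6229, 4944 and 33294 CPM at the low dose and 44119, 5000 and 30149 CPM at the high dose, and the doses overlapped. Alb, the albumin gene, made up most of each sum. Ttr, Apoa1 and Serpina1c were likewise highest in low-dose replicate 3 and high-dose replicates 1 and 3. Tat and Cps1 did not follow that order. Tat was at 725, 387 and 457 CPM at the low dose and at 530, 782 and 477 CPM at the high dose. Cps1 was at 244, 191 and 422 CPM against 335, 460 and 511 CPM. Albumin, the main secreted hepatocyte protein, took 6.65% ± 4.63 of the counts outside mitochondrial genes and their copies at the high dose and 4.07% ± 4.20 at the low dose (SD, n = 3 each; exact permutation p = 0.6). In whole tissue, fewer cells of a type and less RNA per cell cannot be told apart.

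**Figure D1:**
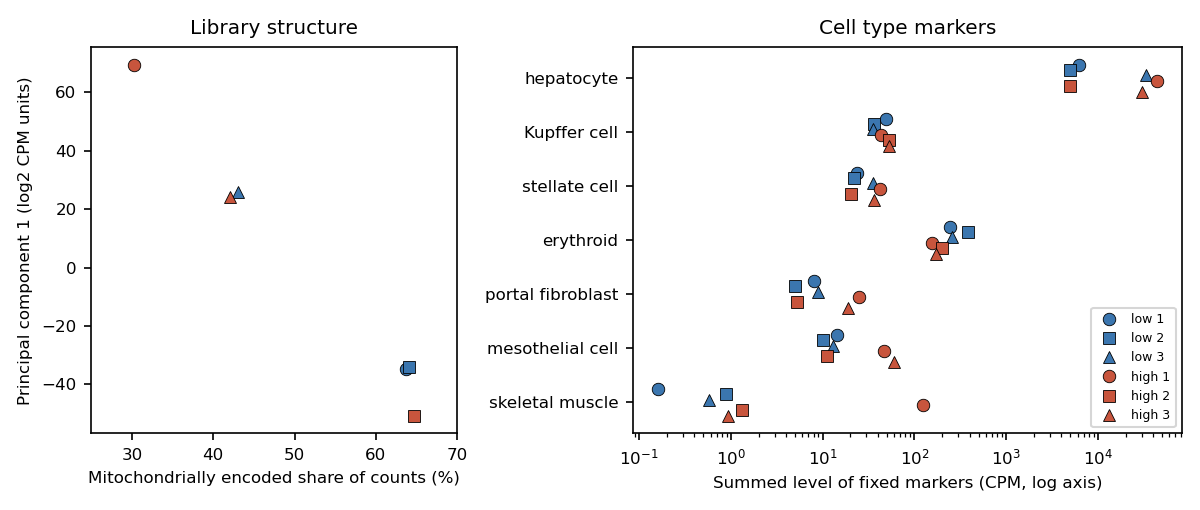
Left, score on principal component 1 (log2 CPM units) against the mitochondrially encoded share of counts (%), 1 point per library. Right, summed level of the fixed markers of each cell type (CPM, log axis). Libraries of both doses lie at shares near 64% and near 42%, skeletal muscle markers stand out in high-dose replicate 1, and mesothelial markers stand out in high-dose replicates 1 and 3.

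No gene passed the test between the doses. Of 15819 genes tested with edgeR's quasi-likelihood test, 0 (0%) had a Benjamini-Hochberg adjusted p under 0.05. At an unadjusted p under 0.05 there were 280 genes (1.77%), of which 197 (1.25%) were higher and 83 (0.525%) lower at the high dose. The 3 high-dose libraries lay above all 3 low-dose libraries for 458 genes (2.9%) and below them for 400 genes (2.53%), so that the doses did not overlap for 858 genes (5.42%) in all. DESeq2 called 6 genes at an adjusted p under 0.05 and limma voom with library weights called 0, with 376 and 3265 genes at an unadjusted p under 0.05. Every gene given a fold change below had an adjusted p of 0.999 in the edgeR test, so each value describes these 6 livers. A p-value above the threshold does not show that the doses act alike, and the biological coefficient of variation of 0.459 left wide intervals. The genes described first are the 10 on each side with the smallest unadjusted p under the rule for named genes. Since they were chosen by p in these 6 libraries, separate groups carry little weight for them. The same holds for a direction kept when these libraries are refitted.

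The metallothionein genes Mt1 and Mt2 had higher levels in all 3 high-dose libraries than in any low-dose library. Metallothioneins are small cysteine-rich proteins that bind zinc and copper, and their genes are induced by metals, glucocorticoids and inflammation. Mt1 (ENSMUSG00000031765) was at 48.6, 60.7 and 123 CPM in low-dose replicates 1, 2 and 3, and at 364, 170 and 285 CPM in high-dose replicates 1, 2 and 3. Mt2 (ENSMUSG00000031762) was at 22.7, 24.3 and 62.6 CPM at the low dose and at 193, 98.2 and 139 CPM at the high dose. For both genes the lowest high-dose library was above the highest low-dose library. The log2 fold change was 1.82 ± 0.54 (SE) for Mt1 (edgeR unadjusted p = 0.0101) and 1.97 ± 0.54 for Mt2 (edgeR unadjusted p = 0.00648), with 95% intervals from 0.56 to 3.07 and from 0.72 to 3.22. Within libraries of like mitochondrial share, the log2 difference was 1.21 and 1.65 for Mt1 and 1.15 and 2.06 for Mt2. Among low-dose libraries both genes were highest in replicate 3, the one with the smaller mitochondrial share.

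The start regions of both genes are shown because their levels differed alike and because metallothionein genes are known to be controlled through metal response elements, the sites of the zinc-sensing factor MTF-1. The windows hold 250 bases before the RefSeq start and 30 after it, from the RefSeq table for GRCm38.p6. That is not the build of the deposited counts (mm39), and no coordinates of the 2 builds were mixed. Capitals mark matches to the 7-base cores TGCACNC or TGCGCNC on either strand.
Mt1, chr8:94178839-94179118, plus strand: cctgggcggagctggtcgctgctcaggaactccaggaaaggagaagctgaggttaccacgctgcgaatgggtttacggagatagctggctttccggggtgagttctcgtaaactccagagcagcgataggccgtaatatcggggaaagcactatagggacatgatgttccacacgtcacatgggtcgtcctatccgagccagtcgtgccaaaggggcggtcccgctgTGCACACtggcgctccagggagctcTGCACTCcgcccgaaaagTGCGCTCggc
Mt2, chr8:94172368-94172647, plus strand: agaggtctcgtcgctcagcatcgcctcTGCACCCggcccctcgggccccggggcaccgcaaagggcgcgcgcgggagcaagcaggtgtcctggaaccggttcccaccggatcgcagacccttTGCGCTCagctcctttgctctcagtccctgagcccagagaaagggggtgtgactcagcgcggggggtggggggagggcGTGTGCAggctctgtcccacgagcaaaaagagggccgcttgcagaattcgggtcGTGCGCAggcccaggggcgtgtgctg
The Mt1 window held 3 matches and the Mt2 window 4. At least 3 matches were found in 1.73% and at least 4 in 0.405% of the 32851 start windows of 280 bases in the same table. The cores were chosen because metallothionein genes are known to carry them, so these shares say nothing about the doses. A match is a stretch of letters and was not tested as a binding site. Bases outside the windows were not searched.

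The other leading genes higher at the high dose included Lcn2, Ddit4, Rhob and Ppat. Lcn2, which encodes lipocalin 2, an acute phase protein that binds bacterial siderophores, was at 0.682, 0.680 and 2.55 CPM at the low dose and at 7.32, 3.57 and 7.68 CPM at the high dose. Its log2 fold change was 2.2 ± 0.59 (edgeR unadjusted p = 0.00551). Ddit4, a stress-induced inhibitor of the growth kinase mTORC1, was at 1.52, 1.39 and 4.36 CPM at the low dose and at 7.61, 6.36 and 9.02 CPM at the high dose. The groups did not overlap for either gene. The Ddit4 log2 fold change was 1.64 ± 0.47, and its differences within libraries of like mitochondrial share were 1.04 and 2.10. Trp53inp1, a p53 target that promotes autophagy, and Trib3, a pseudokinase of the integrated stress response, also had groups that did not overlap, with log2 fold changes of 1.24 ± 0.40 and 0.67 ± 0.27. Rhob, a small GTPase of endosomes, was 1.04 ± 0.32 higher, and Ppat, which catalyses the committed step of purine synthesis, 0.87 ± 0.26 higher, both without overlap. Of 20 tested genes of the integrated stress response and Ddit4 list, 15 lay above 0 (against 54.4% of all genes) with a median of 0.28. Groups were separate on the higher side for 3 of them (against 2.9% of all genes) and on the lower side for 1, Atf4 (against 2.53%). Of 20 p53 targets 12 lay above 0 with a median of 0.12, and the heat shock list had a median of 0.09.

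**Figure D2:**
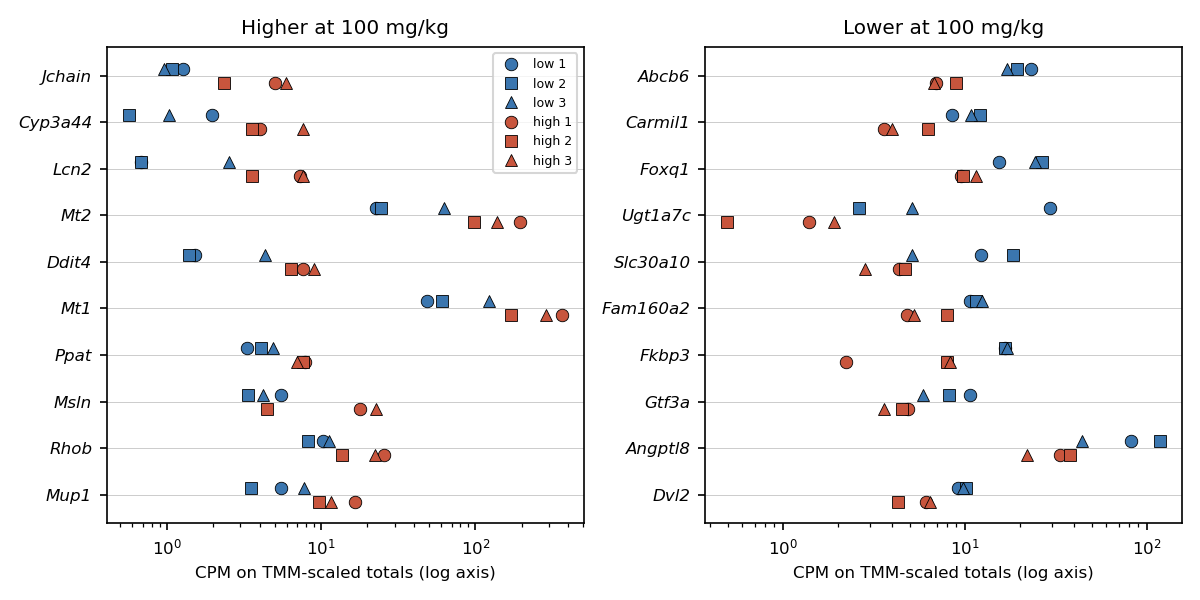
Level of each of the 20 leading genes in each of the 6 libraries (CPM on totals scaled by the trimmed mean of M-values, log axis), blue for 25 mg/kg and red for 100 mg/kg. Groups are separate for every gene except Msln, for which high-dose replicate 2 (4.48 CPM) lies within the low-dose range. The genes were chosen by their p in these libraries, so separate groups carry little weight.

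Hepatocyte genes for drug and steroid metabolism appeared on both sides. Cyp3a44, a cytochrome P450 of the CYP3A family, was at 1.96, 0.567 and 1.04 CPM at the low dose and at 4.06, 3.57 and 7.61 CPM at the high dose, a log2 fold change of 2.11 ± 0.51 (edgeR unadjusted p = 0.00329). Ugt1a7c, a glucuronosyltransferase that conjugates phenols and drugs, was lower at the high dose. Its level was 29.4, 2.64 and 5.10 CPM at the low dose and 1.39, 0.493 and 1.91 CPM at the high dose, a log2 fold change of -3.27 ± 0.93 (edgeR unadjusted p = 0.00771). Low-dose replicate 1 was far above the other libraries for Ugt1a7c, and the smallest difference among 16 alternatives, -1.61, was past 0 as well. Both genes are uncertain, because Ugt1a7c shares exons with other Ugt1a genes and Cyp3a44 is 95.6% identical to a pseudogene over 55.1% of its length. Mup1, a major urinary protein secreted by hepatocytes, was 1.17 ± 0.36 higher, but it is 99.5% identical to Mup19 and Mup2, so its reads cannot be told apart from theirs. In the cytochrome P450 2 and 3 list, 22 of 31 tested genes lay above 0 (against 54.4% of all genes) and 9 below, with a median log2 fold change of 0.40. At an unadjusted p under 0.05 there were 2 genes, both higher (against 1.25% of all genes). Without high-dose replicate 1, 16 of the 31 lay above 0 with a median of 0.03. The list median was -0.07 with mitochondrial share as a covariate and -0.13 and -0.09 within libraries of like mitochondrial share.

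Transporters and secreted regulators stood among the genes lower at the high dose. Abcb6, an ATP-driven porphyrin transporter, was at 23.0, 19.5 and 17.0 CPM at the low dose and at 6.91, 8.94 and 6.76 CPM at the high dose. Its log2 fold change of -1.40 ± 0.28 had a 95% interval from -2.03 to -0.76 (edgeR unadjusted p = 0.000913), and DESeq2 called it at an adjusted p of 0.0257. The difference was nearly the same in both sets of like mitochondrial share, -1.33 and -1.24. Slc30a10, a manganese exporter, was at 12.3, 18.4 and 5.11 CPM at the low dose and at 4.36, 4.72 and 2.83 CPM at the high dose. Angptl8, a feeding-induced secreted inhibitor of lipoprotein lipase, was at 82.4, 119 and 43.9 CPM at the low dose and at 33.5, 37.9 and 21.9 CPM at the high dose. Slc30a10 and Angptl8 had log2 fold changes of -1.58 ± 0.47 and -1.39 ± 0.47 (edgeR quasi-likelihood test, unadjusted p of 0.0094 and 0.0172). For both, low-dose replicate 3 was the nearest to the high-dose libraries. Abcb6 was the one gene of the 21 tested in the haem synthesis and iron list with an unadjusted p under 0.05, and the list had a median of 0.06. Over all genes 0.525% were lower at that p.

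Regulators of transcription, signalling and the cytoskeleton completed the lower side. Foxq1, a forkhead transcription factor, was at 15.4, 26.5 and 24.4 CPM at the low dose and at 9.53, 9.83 and 11.5 CPM at the high dose, a log2 fold change of -1.10 ± 0.31 (edgeR unadjusted p = 0.00664). Carmil1, a regulator of actin capping protein, was -1.18 ± 0.31. Fkbp3, a nuclear prolyl isomerase, was at 16.7, 16.7 and 17.1 CPM at the low dose and at 2.22, 7.98 and 8.27 CPM at the high dose, so that the low-dose libraries were nearly equal and high-dose replicate 1 was the lowest. The log2 fold change was -0.92 ± 0.30 for Gtf3a, the factor that starts transcription of 5S ribosomal RNA, and -0.78 ± 0.26 for Dvl2, a relay protein of Wnt signalling. Fam160a2, a component of a complex that links endosomes to the dynein motor, was -0.94 ± 0.28. None of these 6 genes had groups that overlapped. Osgin1, an NRF2 target, was lower at -0.83 ± 0.35, and the classical NRF2 targets Nqo1 and Hmox1 had log2 fold changes of 0.22 ± 0.61 and 0.40 ± 0.41. Osgin1 was the only tested gene of the NRF2 list with an unadjusted p under 0.05 (0.525% of all genes were lower at that p). Of the 25 tested genes of that list, 20 lay above 0 (against 54.4% of all genes) with a median of 0.21. That direction rested on high-dose replicate 1: without it 9 of 25 lay above 0 with a median of -0.16. The NRF2 median was -0.28 with mitochondrial share as a covariate, and -0.05 and -0.43 within libraries of like mitochondrial share.

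**Figure D3:**
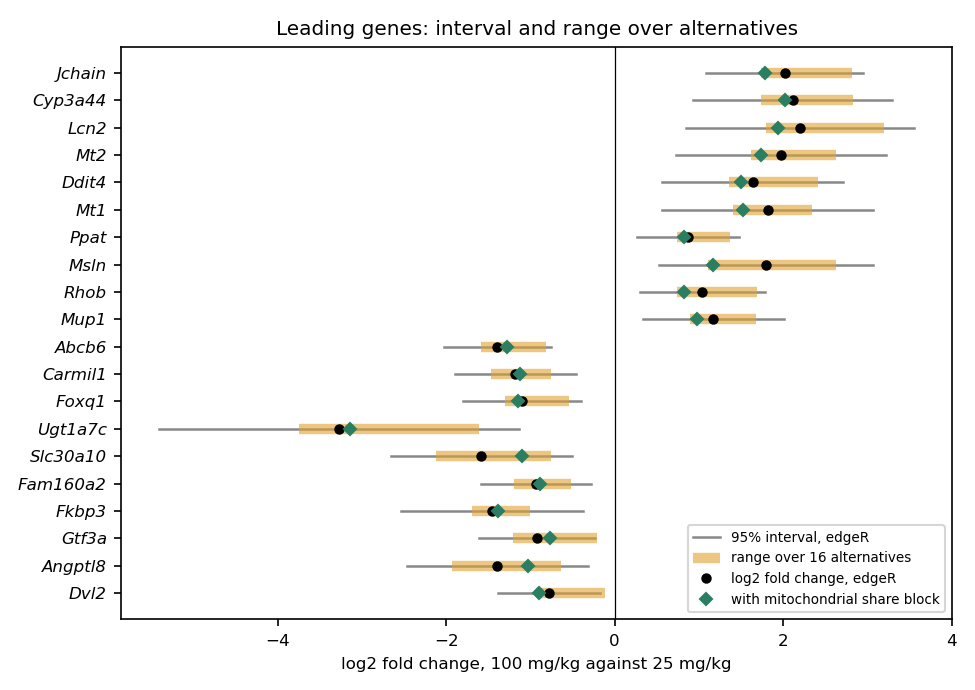
Log2 fold change of the 20 leading genes at 100 mg/kg against 25 mg/kg with its 95% interval from edgeR (line), its range over 16 alternative settings (band) and its value with a block for mitochondrial share (diamond). All 20 genes keep their direction in all 16 alternatives, and the nearest to 0 is Dvl2 at -0.11 with library totals as the scaling. The genes were chosen by their p in these libraries, which the alternatives reuse, so a kept direction carries little weight.

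The fixed gene lists are described by counts and medians, beside the median of all genes tested, 0.05. With library totals in place of the trimmed mean of M-values, the median of all genes moved to 0.62, so list medians are to be read against that of all genes. The list of other abdominal tissues had the highest median (3.97), over only 3 tested genes, Mylpf and Tnnt3 of skeletal muscle and Cela1 of pancreas, and it was 0.87 without high-dose replicate 1. Among lists with at least 5 tested genes, those with the highest medians were portal fibroblasts and mesothelial cells (1.44), activated stellate cells and myofibroblasts (1.34), and fibrillar collagen and matrix (1.04). Among the lists of that size outside mitochondrial DNA, the erythroid one had the lowest median (-0.63).

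**Figure D4:**
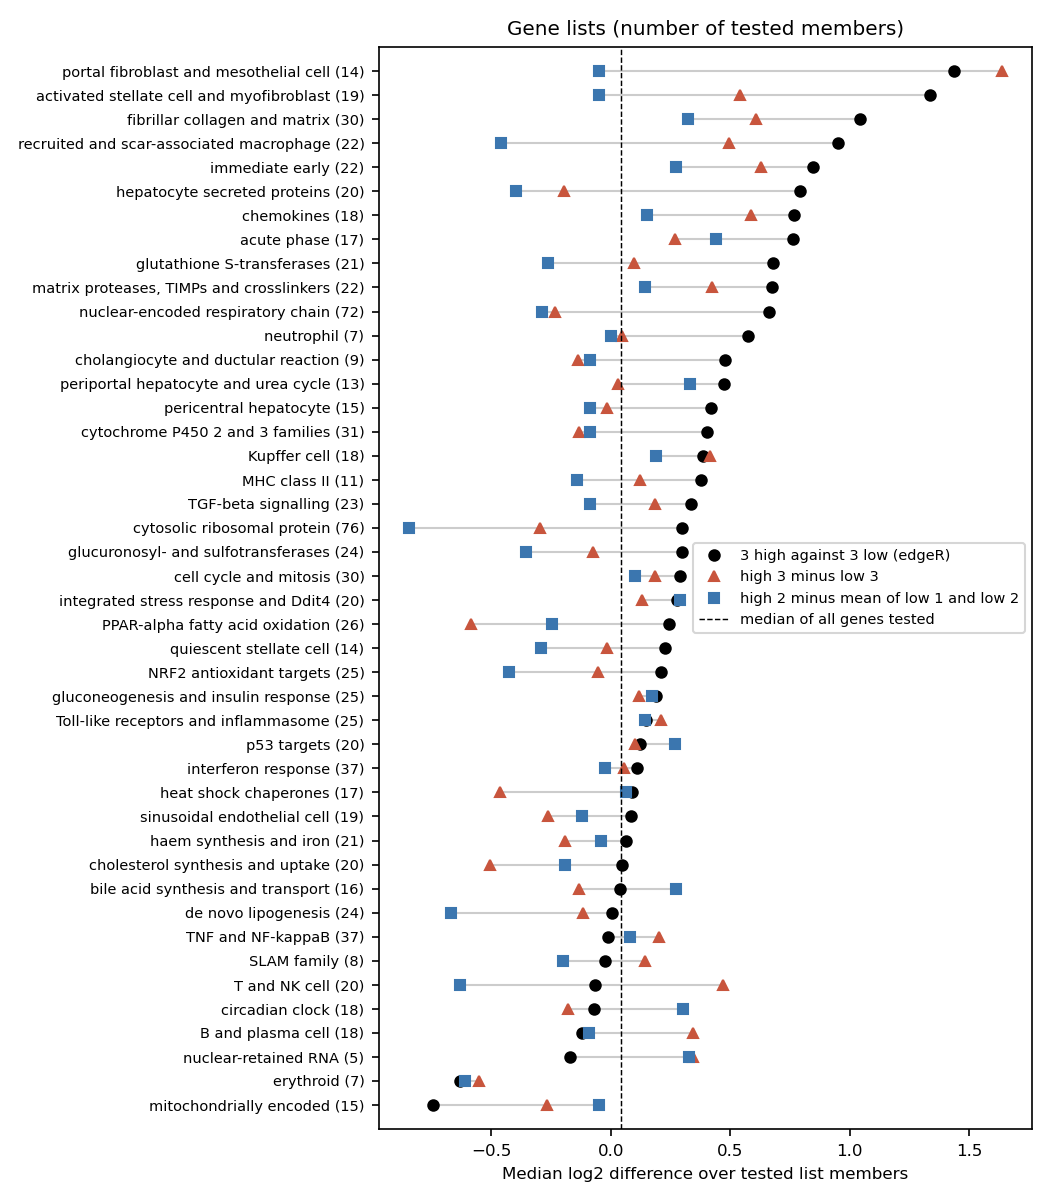
Median log2 difference over the tested members of each gene list, for 3 high-dose against 3 low-dose libraries (circles), for high-dose replicate 3 minus low-dose replicate 3 (triangles) and for high-dose replicate 2 minus the mean of low-dose replicates 1 and 2 (squares). The dashed line is the median of all genes tested, 0.05. Portal fibroblast and mesothelial cell genes lie at 1.44 and 1.64 for the first and second of these and at -0.05 for the last.

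Matrix genes were mostly higher at the high dose, and mostly in high-dose replicates 1 and 3. Of 30 tested fibrillar collagen and matrix genes, 29 lay above 0 (against 54.4% of all genes), and 6 of them had an unadjusted p under 0.05 (against 1.25%). Col1a1, the main chain of scar collagen, was at 2.04, 0.907 and 5.75 CPM at the low dose and at 28.6, 1.78 and 11.7 CPM at the high dose, so high-dose replicate 2 lay within the low-dose range. Its log2 fold change was 2.25 ± 0.96, and those of Col1a2 and Col3a1, its usual partners in the fibrils, were 1.69 ± 0.76 and 1.53 ± 0.73. Dcn, a proteoglycan that binds collagen, was at 14.1, 10.0 and 23.6 CPM at the low dose and at 67.6, 19.6 and 54.4 CPM at the high dose, a log2 fold change of 1.57 ± 0.54. Col5a3, a chain of type V collagen, was the 1 gene of the list below 0, at -1.10 ± 0.40. Without high-dose replicate 1, 28 of the 30 lay above 0 with a median of 0.66, and 0 genes were higher at an unadjusted p under 0.05. That number was also 0 without low-dose replicate 1 (median 1.17) and without low-dose replicate 2 (median 0.86). It was 1 without high-dose replicate 3, 16 without low-dose replicate 3 and 17 without high-dose replicate 2. The median was 0.61 in high-dose replicate 3 against low-dose replicate 3, and 0.32 in high-dose replicate 2 against low-dose replicates 1 and 2.

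Genes of contractile and activated stellate cells also scored highest in high-dose replicates 1 and 3. Of 19 tested, 17 lay above 0 (against 54.4% of all genes), and 7 were higher at an unadjusted p under 0.05 (against 1.25%). Groups did not overlap for 2 of them (against 2.9% of all genes on the higher side). Those 2 were Tagln, an actin-binding protein of smooth muscle and myofibroblasts, and Ccn2, a matricellular protein induced by TGF-β. Tagln was at 0.722, 0.595 and 1.04 CPM at the low dose and at 4.76, 2.09 and 1.52 CPM at the high dose, and its log2 fold change was 1.82 ± 0.50. Ccn2 was at 1.2, 0.51 and 1.18 CPM at the low dose and at 3.57, 1.76 and 3.46 CPM at the high dose, 1.60 ± 0.46 higher on the log2 scale. Acta2, the defining actin of myofibroblasts, overlapped between the doses. Its level was 0.200, 0.652 and 1.88 CPM at the low dose and 8.14, 0.563 and 1.92 CPM at the high dose, with a log2 fold change of 1.90 ± 1.00. High-dose replicate 1, the library with skeletal muscle transcripts, was the highest for Acta2 and Tagln, and without it 15 of the 19 genes lay above 0 with a median of 0.79. The median was 0.54 in high-dose replicate 3 against low-dose replicate 3, and -0.05 in high-dose replicate 2 against low-dose replicates 1 and 2. Timp1, an inhibitor of matrix proteases, had 0, 7 and 45 counts at the low dose and 268, 0 and 117 counts at the high dose, where 3 counts correspond to 0.120 CPM in low-dose replicate 1 and 0.0704 CPM in high-dose replicate 2, the libraries with 0. Its relative Timp2 was 1.86 ± 0.66 higher on the log2 scale.

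The portal fibroblast and mesothelial list set high-dose replicates 1 and 3 apart from high-dose replicate 2. Of its 14 tested genes, 13 lay above 0 (against 54.4% of all genes) and 5 were higher at an unadjusted p under 0.05 (against 1.25%). Msln, the surface protein mesothelin, was at 5.53, 3.34 and 4.22 CPM at the low dose and at 18.0, 4.48 and 22.9 CPM at the high dose, a log2 fold change of 1.80 ± 0.55 (edgeR unadjusted p = 0.0116). Upk3b, a uroplakin that marks mesothelium, was at 1.68, 1.28 and 2.65 CPM at the low dose and at 9.65, 1.31 and 13.3 CPM at the high dose. Krt19, a keratin of mesothelial and bile duct cells, had a log2 fold change of 1.85 ± 0.63, and S100a6, a calcium-binding protein of fibroblasts from the activated stellate cell list, of 2.47 ± 0.80. In each of these 4 genes high-dose replicates 1 and 3 were above every low-dose library and high-dose replicate 2 was within the low-dose range. Clec3b, a plasminogen-binding lectin of mesenchymal cells, was chosen after its values were seen, because it was the 1 gene called by edgeR when high-dose replicate 2 was left out. It was at 0.241, 0.283 and 0.178 CPM at the low dose and at 9.06, 0.422 and 8.62 CPM at the high dose, which is the same pattern of libraries. Whether the amount of liver surface or vessel tissue in the samples plays a part in these differences was not tested.

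Immediate early genes, which are transcribed within minutes of a stimulus or of tissue handling, were higher at the high dose in most members. Of 22 tested, 21 lay above 0 with a median of 0.84, 7 had an unadjusted p under 0.05 and 5 had groups that did not overlap, all on the higher side. Over all genes 54.4% lay above 0, 1.25% were higher at that p and 2.9% were separated on the higher side. Egr1, a zinc finger factor, was at 3.13, 4.48 and 1.78 CPM at the low dose and at 7.27, 5.33 and 8.90 CPM at the high dose, a log2 fold change of 1.2 ± 0.39. Klf2, a factor of endothelial cells under flow, was at 5.29, 2.30 and 6.31 CPM at the low dose and at 13.6, 6.97 and 12.4 CPM at the high dose, 1.24 ± 0.43 on the log2 scale. The AP-1 subunits Fos and Jun had log2 fold changes of 2.01 ± 0.70 and 0.97 ± 0.34. For Fos, high-dose replicates 1 and 3 (4.03 and 3.56 CPM) were above the low dose (0.425 to 1.2 CPM), while high-dose replicate 2 (0.681 CPM) was not. Leaving out high-dose replicate 1 gave 17 of 22 genes above 0 with a median of 0.66 and 3 at an unadjusted p under 0.05. Leaving out low-dose replicate 2 gave 21 of 22 above 0 with a median of 0.60 and 1 at that p. Within libraries of like mitochondrial share the medians were 0.63 and 0.27.

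Of 17 acute phase genes, which the liver secretes in response to cytokines, 15 lay above 0 (against 54.4% of all genes), with a median of 0.76, and 5 were higher at an unadjusted p under 0.05 (against 1.25%). Saa3, a serum amyloid of macrophages and injured tissue, was at 1.40, 0.879 and 4.24 CPM at the low dose and at 27.6, 2.21 and 10.7 CPM at the high dose, a log2 fold change of 2.61 ± 0.90 (edgeR unadjusted p = 0.0201). The low-dose replicate 3 level of Saa3 was above that of high-dose replicate 2. Saa1, 96.7% identical to Saa2 and therefore uncertain, was 1.97 ± 0.71 higher on the log2 scale with overlapping groups. Cebpd, a transcription factor of the acute phase response, was at 3.53, 4.56 and 4.87 CPM at the low dose and at 8.82, 6.81 and 6.07 CPM at the high dose, 0.74 ± 0.28 on the log2 scale, and its groups did not overlap. Without high-dose replicate 1 the acute phase median was 0.43, with 14 of 17 genes above 0 and 1 at an unadjusted p under 0.05. Without low-dose replicate 1 there was also 1 gene at that p, with a median of 0.62. Within libraries of like mitochondrial share the acute phase median was 0.27 and 0.44.

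**Figure D5:**
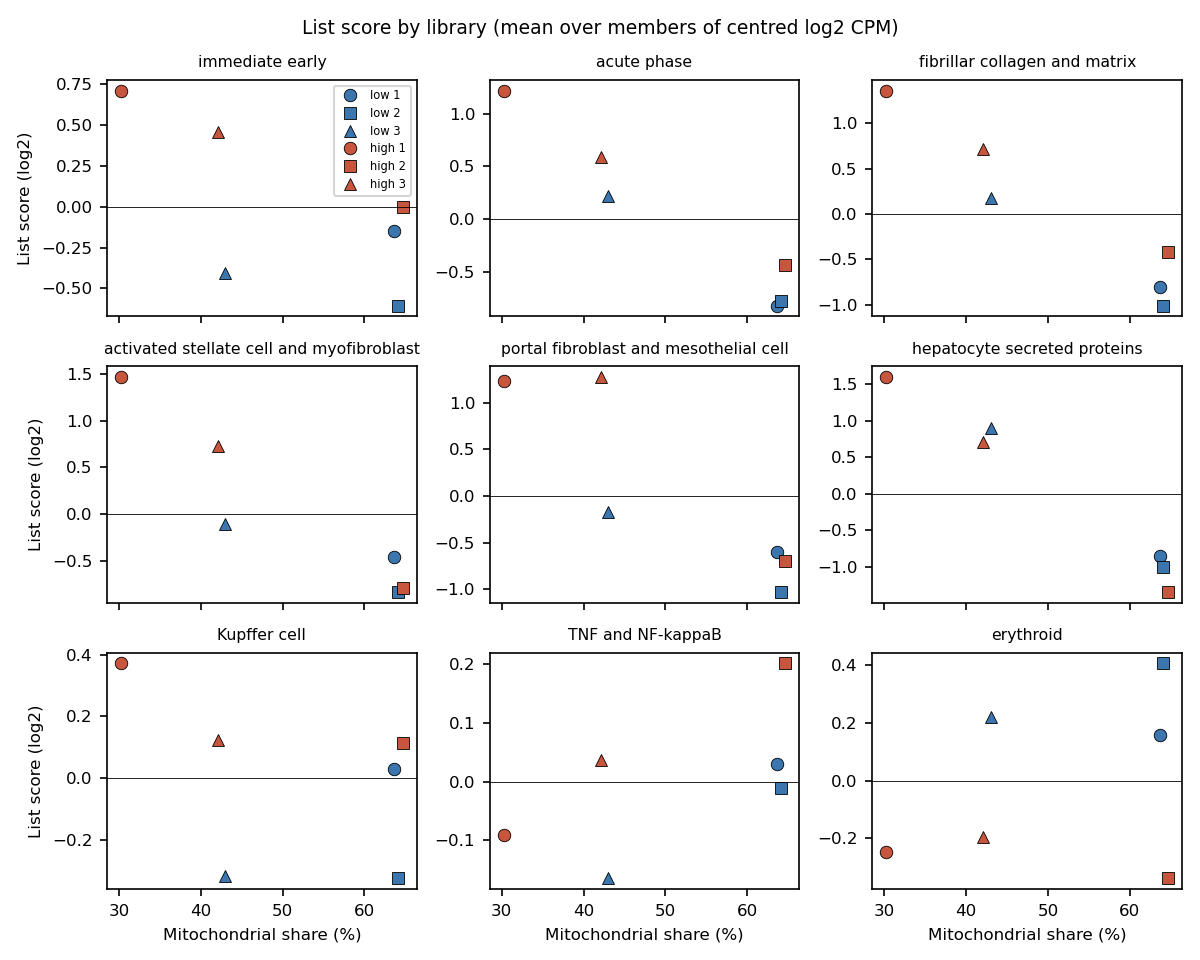
Score of 9 gene lists in each library (mean over tested members of log2 CPM centred on the 6 libraries) against the mitochondrially encoded share of counts (%). Matrix, stellate cell and secreted hepatocyte genes score higher in the 3 libraries with the smaller shares, while the erythroid score is lower in all 3 high-dose libraries than in any low-dose library.

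Erythroid transcripts, from red cells and their precursors in the liver's blood, were lower in the high-dose libraries. All 7 tested genes lay below 0 (54.4% of all genes lay above 0), 0 had an unadjusted p under 0.05 and 2 had groups that did not overlap (against 2.53% of all genes on the lower side). Hba-a1, an α-globin gene, was at 62.4, 90.1 and 80.5 CPM at the low dose and at 48.0, 47.8 and 51.6 CPM at the high dose, a log2 fold change of -0.66 ± 0.35. Hba-a2 was the other gene without overlap, but it is 99.8% identical to Hba-a1, so the pair counts as 1 measurement. The β-globin gene Hbb-bs was at 84.2, 139 and 69.2 CPM at the low dose and at 40.6, 70.2 and 45.5 CPM at the high dose, where high-dose replicate 2 was just above low-dose replicate 3. The erythroid median was -0.55 and -0.61 within libraries of like mitochondrial share and -0.56 without high-dose replicate 1. With library totals as the scaling it was -0.05, while the median of all genes was then 0.62.

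Of the 18 tested genes of the B and plasma cell list, 6 lay above 0 (against 54.4% of all genes) and 12 below, with a median of -0.12. Among its members 3, Jchain, Igkc and Ighm, were higher at an unadjusted p under 0.05 (against 1.25% of all genes). Jchain, the joining chain of secreted IgA and IgM, had the smallest p on the higher side. It was at 1.28, 1.08 and 0.958 CPM at the low dose and at 5.03, 2.37 and 5.96 CPM at the high dose, a log2 fold change of 2.02 ± 0.41 with a 95% interval from 1.09 to 2.95 (edgeR unadjusted p = 0.00103). DESeq2 called Jchain at an adjusted p of 0.046, and its differences within libraries of like mitochondrial share were 2.60 and 0.99. The constant regions Igkc and Ighm were 1.80 ± 0.57 and 1.58 ± 0.50 higher on the log2 scale, and for both high-dose replicates 1 and 3 were above the low dose while high-dose replicate 2 (7.35 and 7.30 CPM) lay within it.

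Macrophage genes lay mostly above 0. Of 22 recruited and scar-associated macrophage genes, 18 lay above 0 (against 54.4% of all genes) with a median of 0.95, which was 0.17 without high-dose replicate 1. With mitochondrial share as a covariate, 12 of the 22 lay above 0 with a median of 0.03. The median was 0.50 in high-dose replicate 3 against low-dose replicate 3, and -0.46 in high-dose replicate 2 against low-dose replicates 1 and 2. Lgals3, a galectin of activated macrophages, was at 4.53, 4.54 and 4.59 CPM at the low dose and at 14.8, 4.67 and 7.78 CPM at the high dose. The groups did not overlap for Lgals3, but high-dose replicate 2 was level with the low dose. Groups were separate on the higher side for 3 of the 22 genes (against 2.9% of all genes). Marco, a scavenger receptor of Kupffer cells, the resident macrophages, was at 1.28, 0.964 and 0.568 CPM at the low dose and at 2.03, 1.85 and 2.63 CPM at the high dose, a log2 fold change of 1.23 ± 0.40 (edgeR unadjusted p = 0.0152). Clec4f, which defines Kupffer cells, differed by 0.27 ± 0.32, and 14 of 18 Kupffer cell genes lay above 0 (against 54.4% of all genes) with a median of 0.39.

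Slamf8, Tnf and the NF-κB subunits overlapped between the doses. Slamf8 had 6, 12 and 24 counts at the low dose and 35, 21 and 13 counts at the high dose, or 0.241, 0.340 and 0.267 CPM against 0.320, 0.493 and 0.218 CPM. Its log2 fold change was 0.27 ± 0.65, with a 95% interval from -1.23 to 1.77 (edgeR unadjusted p = 0.691), and differences inside that interval could not be resolved at these counts. Tnf, the cytokine itself, was at 0.120, 0.369 and 0.189 CPM at the low dose and at 0.330, 0.751 and 0.368 CPM at the high dose, a log2 fold change of 1.07 ± 0.71 with overlapping groups. In low-dose replicate 1, 3 counts correspond to 0.120 CPM, so the Tnf level there rested on very few counts. The NF-κB subunits Nfkb1 and Rela differed by -0.01 ± 0.28 and -0.10 ± 0.32, and with library totals as the scaling by 0.62 and 0.46, where the median of all genes was 0.62. Nfkbia, the inhibitor that NF-κB itself induces, was at 21.25, 19.98 and 20.38 CPM at the low dose and at 28.4, 28.3 and 24.7 CPM at the high dose, without overlap, at 0.40 ± 0.27 on the log2 scale. Tnfaip3, another NF-κB-induced inhibitor, was 0.75 ± 0.37 and Tnfrsf1b, the second TNF receptor, 0.76 ± 0.27, both without overlap. In the whole list 17 of 37 tested genes lay above 0 (against 54.4% of all genes) and 20 below, with a median of -0.01. Groups were separate on the higher side for 3 of the 37 (against 2.9% of all genes) and on the lower side for 0 (against 2.53%). Only 1 gene, Tnfrsf1b, had an unadjusted p under 0.05 (1.25% of all genes were higher at that p). The SLAM family had 4 of 8 tested genes above 0 and a median of -0.02.

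Secreted-protein and respiratory chain genes of hepatocytes had higher scores in the 3 libraries with the smaller mitochondrial share. Of 20 secreted hepatocyte proteins 19 lay above 0 (against 54.4% of all genes) with a median of 0.79, and all 72 nuclear genes of the respiratory chain lay above 0 with a median of 0.66. In neither list did a gene reach an unadjusted p under 0.05, and the medians were below 0 in both sets of like mitochondrial share (-0.20 and -0.40 for secreted proteins, -0.23 and -0.29 for the respiratory chain). Without high-dose replicate 1 they were 0.04 and -0.02. Cyp7a1, the rate-limiting enzyme of bile acid synthesis, was at 8.58, 12.0 and 16.3 CPM at the low dose and at 17.2, 19.6 and 65.0 CPM at the high dose, a log2 fold change of 1.46 ± 0.56 (edgeR unadjusted p = 0.0311). The groups were separate, by a small margin between low-dose replicate 3 and high-dose replicate 1. Cyp8b1, which sets the share of cholic acid, was 1.53 ± 0.56 higher on the log2 scale with overlapping groups. The bile acid list as a whole had 9 of 16 genes above 0 and a median of 0.04. Medians of the de novo lipogenesis and cholesterol synthesis lists were 0.01 and 0.05, with 0 genes at an unadjusted p under 0.05 in either. Cyp2e1, the P450 that activates CCl4, differed by 0.64 ± 0.58 and overlapped.

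For some leading genes the levels of the 3 mice given 50 mg/kg, with all 12 libraries scaled together, are given as a description. Since these genes were chosen for the distance between the low and high doses, a level between them carries no weight. Mt1 was at 147, 123 and 210 CPM and Mt2 at 74.1, 73.4 and 152 CPM in the 50 mg/kg libraries. Both medians lay between those of the low and high doses, and the highest of the 3 Mt2 values was above the high-dose median. Abcb6 was at 9.66, 19.2 and 13.7 CPM, within the span from the low to the high dose. Jchain, at 1.32, 1.11 and 0.921 CPM, was level with the low dose. Ugt1a7c, at 9.91, 10.23 and 15.02 CPM, lay above the low-dose median.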

How the data were processed

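Liver RNA of 6 mice, 3 per dose, was compared. The authors deposited 1 table of raw counts per gene for 12 libraries, not normalized; 0 columns lacked a sample. The submitters' processing notes list STAR 2.7.10b, StringTie 2.2.1 and fastp 0.23.4 and the build mm39. How strand and multi-mapping reads were counted, and by which tool, is not given in the sources, so overlapping, antisense and near-identical genes cannot be told apart. Symbols were found for 52073 of 56923 IDs (91.5%). The 11 nuclear genes at least 95% identical to a mitochondrial gene over at least 80% of their length were treated as copies of it.

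Counts were tested in R 4.3.3 with edgeR 4.0.16 (filterByExpr, TMM, robust quasi-likelihood fit, Benjamini-Hochberg adjustment over 15819 genes, threshold 0.05) on the 6 libraries with dose as the only term. The script was tested on simulated data. At these depths 3 counts correspond to 0.0275 to 0.120 CPM on TMM-scaled totals. Alternatives were DESeq2 1.42.0, limma 3.58.1 (voom), other scalings, no filter, a replicate block, mitochondrial share as covariate or block, all 12 libraries, and each library left out; comparison within libraries of like mitochondrial share was added after seeing the data. Libraries of one dose differed beyond sampling noise (smallest chi-square over its degrees of freedom, 37.8), so none was a second copy of another.

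The comparison, the 45 gene lists and the tests were chosen with earlier results of these data known. Named genes were, on each side, the 10 with the smallest p at a mean log2 CPM of at least 1 (predicted loci, pseudogenes, immunoglobulin segments and mitochondrial copies left out), up to 4 genes with the smallest p per list, and fixed anchor genes.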

Additional observations from a re-analysis of the deposited data

How the results depend on the processing

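The count of genes at an adjusted p under 0.05 was 0 in edgeR and under every alternative except DESeq2 (6 genes, 3 higher and 3 lower) and the fit without high-dose replicate 2 (1 gene, Clec3b). Leaving out 1 library gave 0 to 1 such genes, and 107 to 1446 at an unadjusted p under 0.05. A replicate block gave 0, with 298 genes at an unadjusted p under 0.05 against 280; same-numbered libraries deviated together in 2 of 3 pairs (correlations -0.21, 0.27 and 0.26), so the numbers were not taken to pair the mice. Of 1152 gene values under alternatives (72 genes, 16 settings), 1130 kept their direction and 4 passed the threshold (Clec3b in 2 settings, Jchain and Abcb6 with DESeq2). Many of these genes were chosen by their p in these same libraries, so a kept direction carries little weight. The cause of the reversals was not tested: the Slamf8 log2 fold change was -0.25 with voom and -0.064 (without high-dose replicate 2) to 0.55 with 1 library left out, and Hmox1 -0.12 with voom. Nfkb1 was 0.62 with library totals, 0.0030 without a filter, 0.19 with mitochondrial share as covariate, 0.15 with it as block, and -0.15 to 0.10 with 1 library left out. Rela was 0.46, 0.14 and 0.082 with totals, covariate and block, and -0.36 to 0.048 with 1 library left out. Alb was -0.39 and -0.089 with covariate and block. Nqo1 was -0.094 with the replicate block, -0.79 and -0.49 with covariate and block, and -0.50 (without high-dose replicate 1) to 0.65 with 1 library left out. The activated stellate median fell to 0.40 with the covariate and to -0.049 in high-dose replicate 2 against low-dose replicates 1 and 2, where portal and mesothelial genes were at -0.048 and immediate early genes at 0.27. In high-dose replicate 3 against low-dose replicate 3 the medians of these lists were 0.54, 1.64 and 0.63. With library totals, immediate early genes were at 1.48 and erythroid genes at -0.054. Leaving out 1 library gave medians of 0.79 to 1.75 (activated stellate), 1.05 to 1.90 (portal and mesothelial), 0.66 to 1.58 (matrix), 0.60 to 1.00 (immediate early), 0.43 to 1.18 (acute phase) and -0.78 to -0.54 (erythroid). The mitochondrial share difference ran from -20.8 to -3.55 points and that of albumin from 0.864 to 5.21 points.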
